A study of Mus musculus with 36 samples.

Results

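Gene expression in the epididymal fat pad, labelled eWAT and lying beside the epididymis, was compared between mice returned from a high-fat to a low-fat diet and mice kept on the high-fat diet. The comparison takes the 6 eWAT libraries labelled HFLF and the 6 labelled HF, 12 of the 36 libraries of the series, and covers all 16690 genes of the eWAT count table. All animals were wild-type C57BL/6 males of the F0 generation, given chow until 6 weeks of age and sampled at 24 weeks. HF mice then ate the high-fat diet for 18 weeks, and HFLF mice ate it for 9 weeks followed by the low-fat diet for 9 weeks. The 6 eWAT libraries of mice on the low-fat diet for 18 weeks (LF) were used for the shared estimate of spread and are given as context. The groups therefore differ in the diet at sampling and in the weeks spent on high-fat food, not in age. The series describes 4 to 6 animals per group, and the labels do not state that each library is a separate mouse, so the p-values measure the spread between these libraries, which may be partly technical. The question the design poses is how far the transcriptome of obese visceral fat differs once the diet is withdrawn.

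Epididymal fat stores triglyceride in adipocytes, which make new fatty acids from glucose and amino acids, release them by lipolysis, and secrete hormones such as leptin and adiponectin. On prolonged high-fat feeding this depot is known to enlarge, to lose adipocytes, to gain collagen, and to draw in macrophages that surround dying adipocytes and take up their lipid. The macrophage receptor TREM2 marks these lipid-laden cells.

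Adipocyte markers were present at high levels in every library. The summed level of 8 of them (Adipoq, Plin1, Cidec, Lipe, Fabp4, Lep, Pparg and Slc2a4) was 12381 to 30566 CPM (counts scaled to a common library total) in HF and 22562 to 29635 CPM in HFLF. CPM are taken on the library size after scaling by trimmed mean of M values (TMM). Total counts were 16178623 to 24023379 per HF library and 8941798 to 22086476 per HFLF library. Some libraries carried transcripts of neighbouring tissue. The sperm protamine Prm2 stood at 333 CPM in HF 1 and 88.9 CPM in HFLF 6, against at most 18.4 CPM in the other HF and HFLF libraries. The epithelial adhesion gene Epcam stood at 29.8 CPM in HFLF 4 and at most 2.58 CPM in the other 11. Some LF libraries carried such transcripts too: Epcam was 125 CPM in LF 4, 51.1 in LF 5 and 7.05 in LF 3, and Prm2 was 124 CPM in LF 4. The secretory epididymal markers Lcn5, Lcn8, Adam7, Rnase10, Cst11, Ces5a and Spink11 were not among the genes analysed here. Crisp1 was at most 7.05 CPM in the HF and HFLF libraries, and its LF values are not given here. The summed hepatocyte markers Alb, Apoa1, Ttr and Serpina1c were 3.44 to 144 CPM in HF and 10.3 to 206 CPM in HFLF, highest in HFLF 4. Prm2 and Epcam were read after their values were seen. Results are therefore also given without HF 1, HFLF 4 and HFLF 6, an alternative added after seeing the data that leaves 5 HF and 4 HFLF libraries and is called the reduced set below. It keeps all LF libraries, and leaving out LF 3, 4 and 5 as well gave 1390 genes between HFLF and HF and 6 between HFLF and LF. The 11 measured genes of the epididymis, sperm duct and epithelium list included 0 that passed edgeR's test in either direction, 0 at an unadjusted p under 0.05, and 0 that passed in DESeq2, with 3 at an unadjusted p under 0.05 there. Among the 12 largest rises, the size of the rise of the epithelial chloride channel gene Clic6 rested on HFLF 4. Clic6 stood at 0.164 to 0.457 CPM in HF, 30.1 CPM in HFLF 4 and 1.29 to 2.65 CPM in the other HFLF libraries, without overlap. Its call was lost without HFLF 4 and in the reduced set (2.83, adjusted p = 0.143, edgeR). The call held when LF 3, 4 and 5 were left out of the reduced set as well. Another of these rises was also highest in HFLF 4, and its call was lost in the reduced set. Its groups did not overlap either, and its call too held with LF 3, 4 and 5 also left out.

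Of the 16690 genes, 4242 (25.4%) differed between HFLF and HF at an adjusted p under 0.05 (edgeR quasi-likelihood test, Benjamini-Hochberg over all genes). Of these, 1784 were higher in HFLF (10.7% of all genes) and 2458 were lower (14.7%). With upper-quartile in place of TMM scaling the split was 2352 higher and 2033 lower, and the median of all genes was then 0.06 instead of 0.00 on the log2 scale, so the balance between the directions depended on the scaling. Larger changes leaned to lower levels: of 1261 called genes with a log2 fold change of at least 1 in size, 381 were higher and 880 lower in HFLF. The 6 HFLF libraries did not overlap the 6 HF libraries for 796 genes that were higher (4.77%) and 779 that were lower (4.67%). The reduced set gave 951 genes, 390 higher and 561 lower, and there the number with an unadjusted p under 0.05 was 4640. Lists of genes by function differed in direction. Members for fat synthesis, amino acid breakdown and respiration were called higher more often than the background of 10.7%. Members for cell division, lysosomes, macrophages, collagen and protein folding were called lower more often than the background of 14.7%. These shares describe the lists and were not tested as sets.

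**Figure D1:**
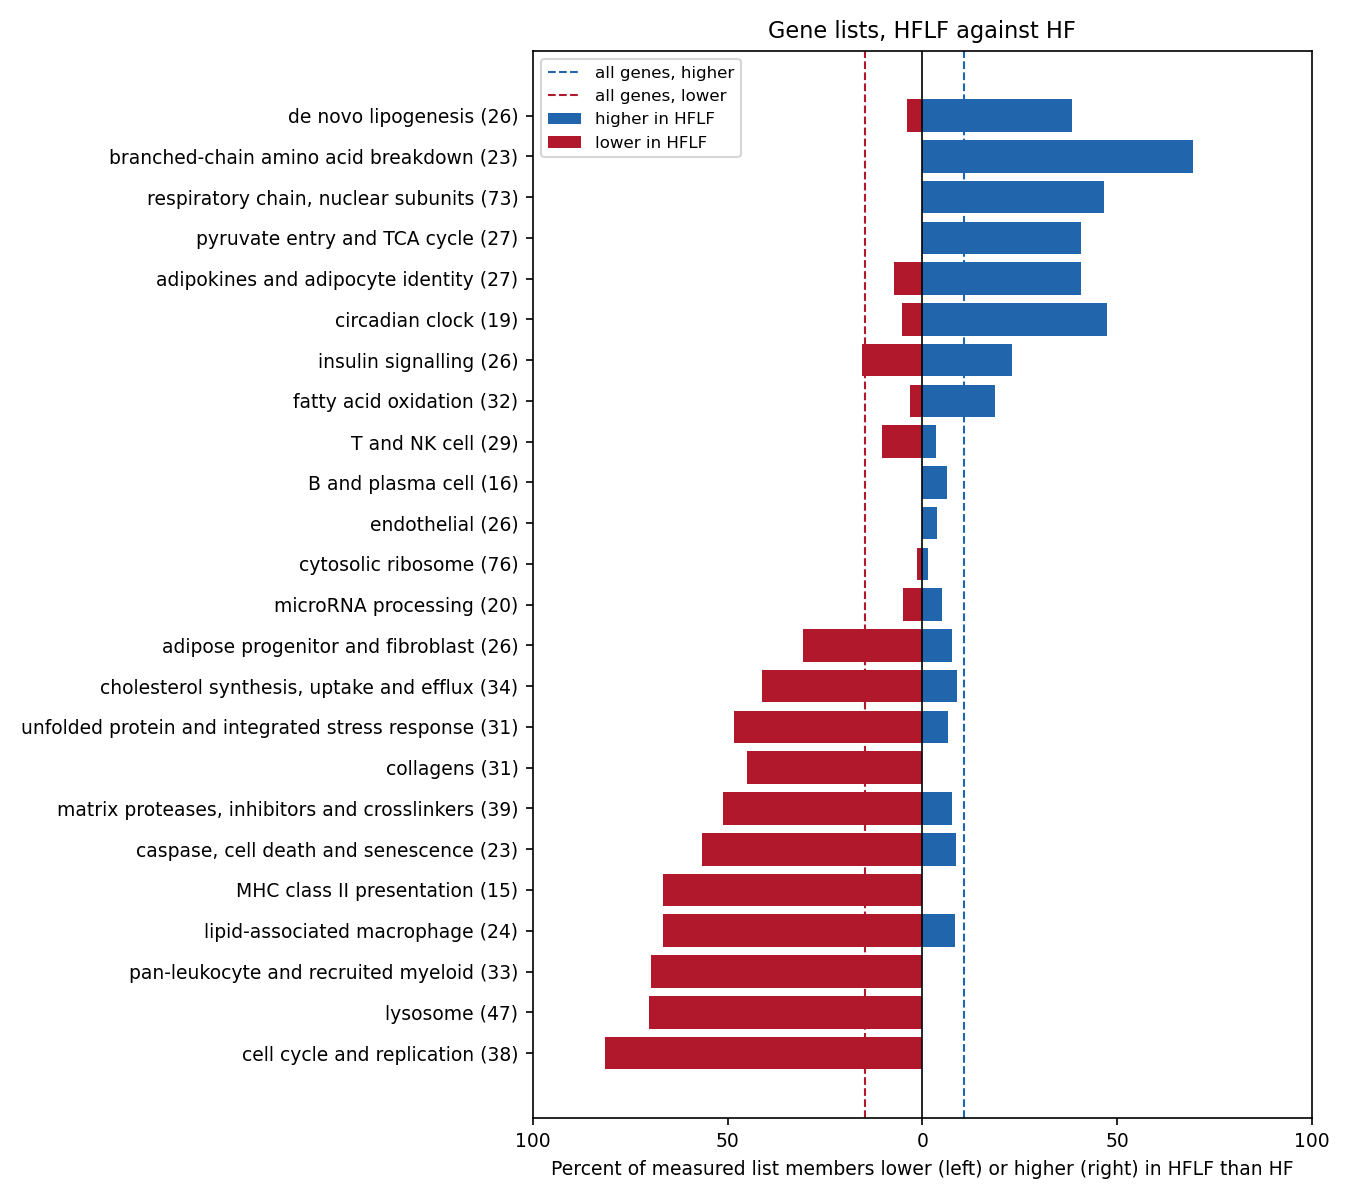
Share of the measured members of 24 gene lists (number measured in brackets) that were lower (left, red) or higher (right, blue) in HFLF than HF at an adjusted p under 0.05, as percent. Dashed lines mark the shares over all genes, 14.7% lower and 10.7% higher. The cell cycle list extends farthest to the left (31 of 38 members) and branched-chain amino acid breakdown farthest to the right (16 of 23).

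Leptin and adipsin, both secreted by adipocytes, moved in opposite directions. Lep, the satiety hormone whose level follows fat mass (ENSMUSG00000059201.12, chromosome 6, 29060220 to 29073877, plus strand, GRCm38), stood at 3506, 4639.9, 2449, 3047, 3847 and 4228 CPM in HF 1 to 6 and at 1692, 1595, 1897, 532, 1128 and 1111 CPM in HFLF 1 to 6. Every HFLF library lay below every HF library. The difference was -1.45 ± 0.42 (log2, SE; adjusted p = 0.0179, edgeR), with LF at 321 to 2153 CPM. Cfd, which encodes the complement protease adipsin (ENSMUSG00000061780.6, chromosome 10, 79890853 to 79892655, plus strand), stood at 400.0, 1055, 149, 304, 1515 and 1139.7 CPM in HF 1 to 6 and 4628, 2938, 3363, 9639, 6980.3 and 4764 CPM in HFLF 1 to 6. The groups did not overlap, and Cfd was higher in HFLF by 2.82 ± 0.51 (adjusted p = 0.00182, edgeR). LF libraries held 5052 to 16843 CPM of Cfd.

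Of 27 measured genes for adipokines and adipocyte identity, 11 were higher and 2 lower in HFLF, with a median of 0.46 against 0.00 over all genes. Slc2a4, the insulin-responsive glucose transporter GLUT4, was 85.7, 145, 33, 61.9, 179.6 and 167 CPM in HF 1 to 6 and 216 to 314 CPM in HFLF. All HFLF libraries exceeded all HF libraries, by 1.27 ± 0.31 (adjusted p = 0.00774, edgeR). Adiponectin (Adipoq), the insulin-sensitizing hormone, was 1808 ± 900.5 CPM (SD, n = 6) in HF and 3470.4 ± 539 CPM (SD, n = 6) in HFLF, with overlap through HF 5 and a difference of 0.94 ± 0.28 (adjusted p = 0.0197, edgeR). The number of higher members ranged between 6 (without HF 3) and 13 (without HF 5) when 1 library was left out. In the reduced set the count was 1, the median stayed at 0.41, and Lep (-1.21, adjusted p = 0.124), Slc2a4 (1.27, adjusted p = 0.0575) and Adipoq (0.88, adjusted p = 0.0958) missed the threshold in edgeR. Cfd still passed.

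Among genes tied to fat pad growth, Trp53inp2, a regulator of autophagy and adipocyte differentiation, was 1087 to 1621 CPM in HF and 262 to 687 CPM in HFLF, a difference of -1.42 ± 0.24 (adjusted p = 0.00131, edgeR). Hif1a, the hypoxia-inducible transcription factor, was 83.4 to 133 CPM in HF and 61.6 to 71.6 CPM in HFLF, a difference of -0.75 ± 0.10 (adjusted p = 0.000358). Neither gene overlapped between the groups. The angiogenic factor Vegfa, in contrast, was higher in HFLF by 1.49 ± 0.28 (adjusted p = 0.00218, edgeR), at 275 to 652 CPM against 84.3 to 285 CPM in HF. Mest, an imprinted gene that marks adipocyte enlargement, was 581 ± 172 CPM (SD, n = 6) in HF and 211 ± 98.5 CPM (SD, n = 6) in HFLF (adjusted p = 0.0255, edgeR), a call lost without HFLF 4, HFLF 5 or HFLF 6 alone. Of 19 measured expansion genes, 2 were higher and 5 lower. The secreted WNT inhibitor gene Sfrp5 (208 to 772 CPM in HF, 96.9 to 443 in HFLF) and the natriuretic peptide clearance receptor Npr3 (606 to 1375 and 791 to 1268 CPM) did not pass (adjusted p = 0.516 and 0.977, edgeR).

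**Figure D2:**
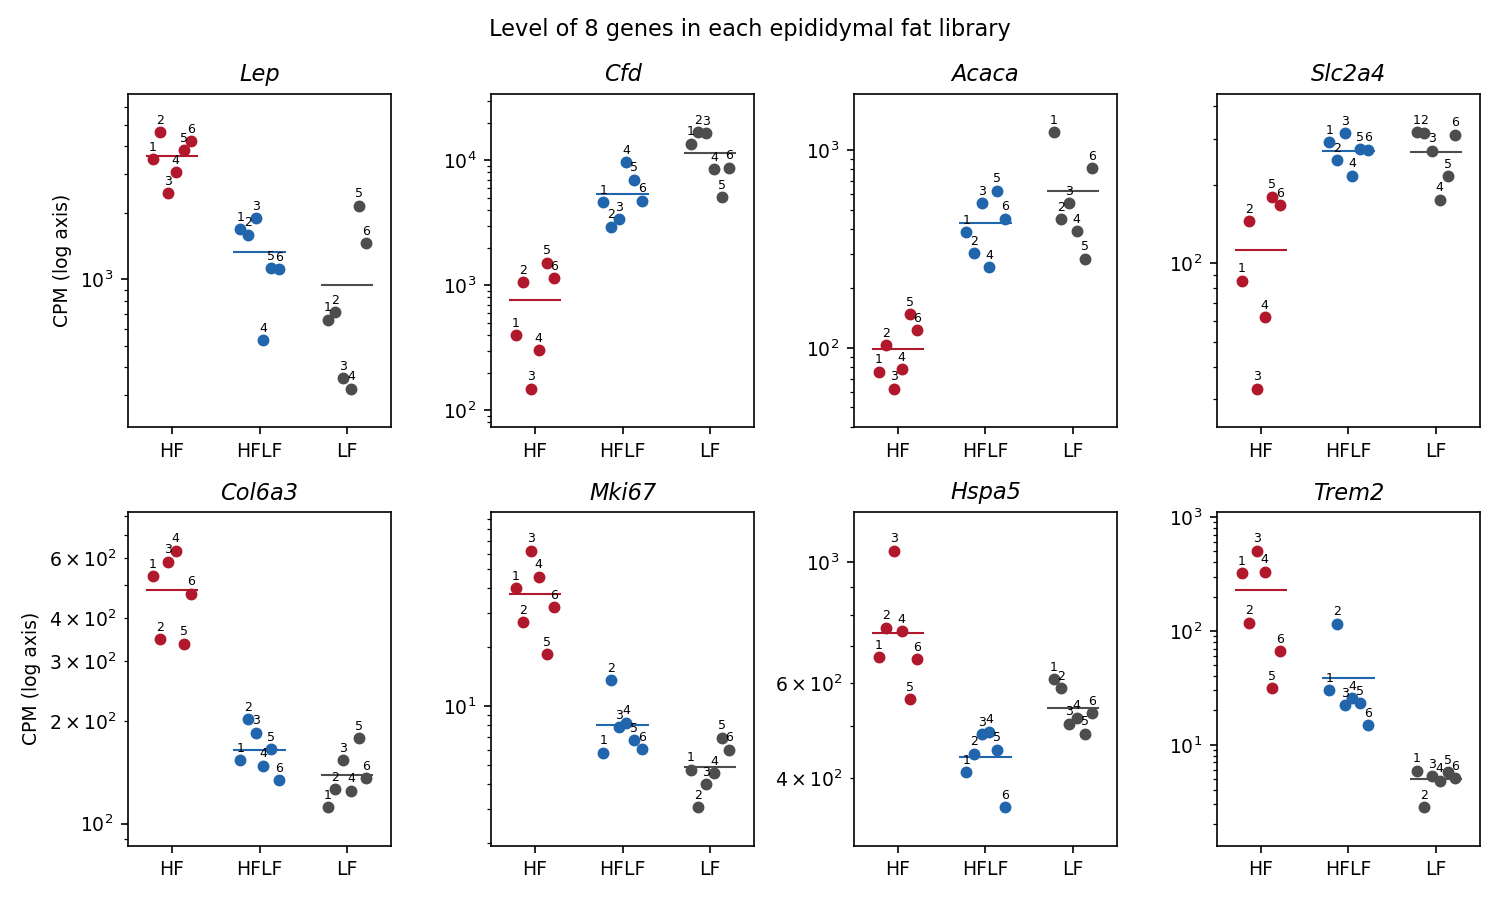
CPM of 8 genes in each eWAT library (log axis), by diet, with replicate numbers beside the points and a line at each group mean. Lep, Col6a3, Mki67 and Hspa5 lie lower in all 6 HFLF libraries than in any HF library, Cfd, Acaca and Slc2a4 lie higher in all 6, and Trem2 overlaps through HFLF 2.

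Several enzymes that build fatty acids from acetyl-CoA were higher after the return to low-fat food. Of 26 measured genes of de novo lipogenesis, 10 were higher and 1 was lower in HFLF, with a median of 0.50. Acaca, acetyl-CoA carboxylase 1 and the committed step of the pathway (ENSMUSG00000020532.18, chromosome 11, 84129672 to 84401651, plus strand), was 75.9, 103, 62.2, 78.3, 148 and 123 CPM in HF 1 to 6 and 386, 301, 539, 257, 625 and 449.5 CPM in HFLF 1 to 6. The lowest HFLF library, HFLF 4, exceeded the highest HF library, HF 5, and the difference was 2.12 ± 0.34 (adjusted p = 0.00101, edgeR). Elovl6, which elongates palmitate, was 18.1 to 27.1 CPM in HF and 30.3 to 123 CPM with a median of 84.8 in HFLF. Its difference was 1.93 ± 0.37 (adjusted p = 0.00241, edgeR), with HFLF 4 again the lowest of its group. Acly, which makes cytosolic acetyl-CoA from citrate, was 331 to 417 CPM in HF and 431 to 2115 CPM with a median of 1298 in HFLF. The HF libraries spanned a narrow range and the HFLF libraries a wide one, and the difference was 1.74 ± 0.44 (adjusted p = 0.00898, edgeR). Tkt, transketolase of the pentose phosphate pathway, was higher by 1.32 ± 0.29 without overlap (adjusted p = 0.00501, edgeR). Fatty acid synthase (Fasn) was 1859 to 3656 CPM in HF and 3245 to 12609 CPM in HFLF, a difference of 1.52 ± 0.36 (adjusted p = 0.00618, edgeR), overlapping only through HFLF 4. The desaturase Scd1 was higher by 1.20 ± 0.29 (adjusted p = 0.00719, edgeR). Of the pathway's transcription factors, Mlxipl, encoding the glucose sensor ChREBP, was higher by 0.74 ± 0.17 (adjusted p = 0.00657, edgeR). Srebf1, encoding SREBP1, was 387 ± 87.6 CPM (SD, n = 6) in HF and 507 ± 76.5 CPM (SD, n = 6) in HFLF and did not pass (adjusted p = 0.0757, edgeR). The 1 member that was lower, Insig1, encodes an endoplasmic reticulum protein that retains SREBPs. Of the 26 genes, 6 were higher in the reduced set, where Scd1 (1.16, adjusted p = 0.0602) and Mlxipl (0.73, adjusted p = 0.0571) missed the threshold in edgeR.

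Of 18 triglyceride synthesis genes, 4 were higher and 0 lower, and of 27 genes of lipolysis and its adrenergic control, 8 were higher and 3 lower. In the fit that left out LF 3, 4 and 5, HF 1, and HFLF 4 and 6, triglyceride synthesis had 0 higher and 1 lower, with a median of 0.26 against 0.21 in all libraries. Pck1, which supplies glycerol 3-phosphate in adipocytes, was 351, 777, 158, 298, 2192 and 986 CPM in HF 1 to 6 and 2291 to 3856 CPM in HFLF. All HFLF libraries lay above HF 5, the highest HF library, and the difference was 1.92 ± 0.46 (adjusted p = 0.00728, edgeR). The beta-3 adrenergic receptor Adrb3, the main lipolytic receptor of rodent fat, was 123, 466, 99.8, 114, 1049 and 589 CPM in HF 1 to 6 and 881 to 1601 CPM in HFLF, overlapping through HF 5 (difference 1.72 ± 0.49, adjusted p = 0.0166, edgeR). It overlaps the predicted gene Gm45470 on the other strand, and the sources used here do not say whether counting used strand. Adrb1, the beta-1 receptor, was 2.96 to 6.65 CPM in HF and 6.75 to 26.3 CPM in HFLF without overlap, higher by 1.60 ± 0.31 (adjusted p = 0.00229, edgeR). Among lipid droplet proteins, Hilpda, a hypoxia-induced inhibitor of the lipase ATGL, was 14.3 to 39.5 CPM in HF and 8.29 to 12.6 CPM in HFLF, lower in every HFLF library by -1.03 ± 0.23 (adjusted p = 0.00485, edgeR). Perilipin 1 (Plin1), the coat protein of the adipocyte droplet, was 1038 to 2589 CPM in HF and 2208 to 2979 CPM in HFLF and did not pass (adjusted p = 0.0853, edgeR). Pck1 and Adrb3 differed by 1.69 and 1.48 in the reduced set and missed the threshold there (adjusted p = 0.066 and 0.0992, edgeR).

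Every mitochondrial gene that passed in the next 3 lists was higher in HFLF. Of 73 nuclear-encoded subunits of the respiratory chain, 34 were higher and 0 lower, with a median of 0.32. Of 27 genes of pyruvate entry and the TCA cycle, 11 were higher and 0 lower (median 0.31). Of 23 genes that break down branched-chain amino acids, a fuel from which adipocytes make lipid, 16 were higher and 0 lower (median 0.61). Ppm1k, the phosphatase that activates the branched-chain ketoacid dehydrogenase, was 9.44, 10.3, 8.11, 8.18, 11.8 and 9.81 CPM in HF 1 to 6 and 19.3, 16.7, 15.4, 18, 22.4 and 21.9 CPM in HFLF 1 to 6. It was among the 8 genes with the smallest p in this direction (0.98 ± 0.12, adjusted p = 0.000278, edgeR), and the groups did not overlap. Ivd, isovaleryl-CoA dehydrogenase of leucine breakdown, was 120.4, 177, 65.1, 94.4, 231 and 194 CPM in HF 1 to 6 and 254 to 362 CPM in HFLF (1.07 ± 0.25, adjusted p = 0.00589, edgeR). Aldh6a1, of valine breakdown, was higher by 1.06 ± 0.24 (adjusted p = 0.00504, edgeR). Neither overlapped between the groups, and in both HF 3 was the lowest library. Suclg2, a succinyl-CoA ligase subunit, was higher by 0.71 ± 0.14 and Ndufa5, a complex I subunit, by 0.58 ± 0.11 (adjusted p = 0.00233 and 0.00231, edgeR), both without overlap.

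The size of the mitochondrial counts depended on which HF libraries were included. The number of respiratory chain subunits called higher ranged between 15 (without HF 4) and 50 (without HF 5), and that of branched-chain amino acid genes between 8 (without HF 4) and 20 (without HF 5). Only 4 respiratory chain, 1 branched-chain amino acid and 1 TCA cycle gene passed in the reduced set, while the medians were 0.37, 0.58 and 0.36 and 72 of 73, 22 of 23 and 26 of 27 members had a positive difference. Ivd (1.02, adjusted p = 0.0583) and Aldh6a1 (0.93, adjusted p = 0.0617) missed the threshold there in edgeR, and Ppm1k, Suclg2 and Ndufa5 passed. Fatty acid oxidation genes went in both directions: of 32 genes, 6 were higher and 1, Cpt1a, was lower. Cpt1a, which admits long-chain fatty acids into mitochondria, was 137 to 273 CPM in HF and 91.1 to 133 CPM in HFLF (-0.82 ± 0.16, adjusted p = 0.00246, edgeR). Acot2, a mitochondrial thioesterase, was higher by 0.63 ± 0.10 (adjusted p = 0.00121, edgeR), both genes without overlap. Ppargc1a, the coactivator PGC-1alpha of mitochondrial biogenesis, was 1.17 to 3.24 CPM in HF and 2.62 to 6.27 CPM in HFLF and did not pass (adjusted p = 0.142, edgeR). Of 26 insulin signalling genes, 6 were higher and 4 lower. Those higher included Irs1, the first docking protein of the insulin receptor (1.02 ± 0.22, adjusted p = 0.00376, edgeR), and Pik3r1, the regulatory subunit of PI3-kinase (0.83 ± 0.21, adjusted p = 0.00819, edgeR). Both missed the threshold in the reduced set (adjusted p = 0.0563 and 0.0741, edgeR), where 0 of the 26 passed in either direction and 10 had an unadjusted p under 0.05.

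Several of the largest rises were in genes outside these pathways. Fam13a, a locus linked in human genetics to fat distribution, was 22.7, 34.4, 12.9, 21.9, 76.9 and 61.3 CPM in HF 1 to 6 and 221, 159.8, 148, 403, 402 and 378 CPM in HFLF 1 to 6, a difference of 2.90 ± 0.43 (adjusted p = 0.000795, edgeR). Slc43a1, a transporter of large neutral amino acids, was 9.86 to 29.7 CPM in HF and 57.2 to 90.9 CPM in HFLF, higher by 2.08 ± 0.27 (adjusted p = 0.00042, edgeR). Net1, an exchange factor for the GTPase RhoA, was 49 to 65.7 CPM in HF and 148 to 406 CPM in HFLF, higher by 2.16 ± 0.26 (adjusted p = 0.000278, edgeR). For none of the 3 did the groups overlap. St6galnac5, a sialyltransferase, was higher by 2.35 ± 0.29 and Gpx3, the secreted glutathione peroxidase, by 1.48 ± 0.18 (adjusted p = 0.000318 and 0.000278, edgeR), and in both every HFLF library exceeded every HF library.

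**Figure D3:**
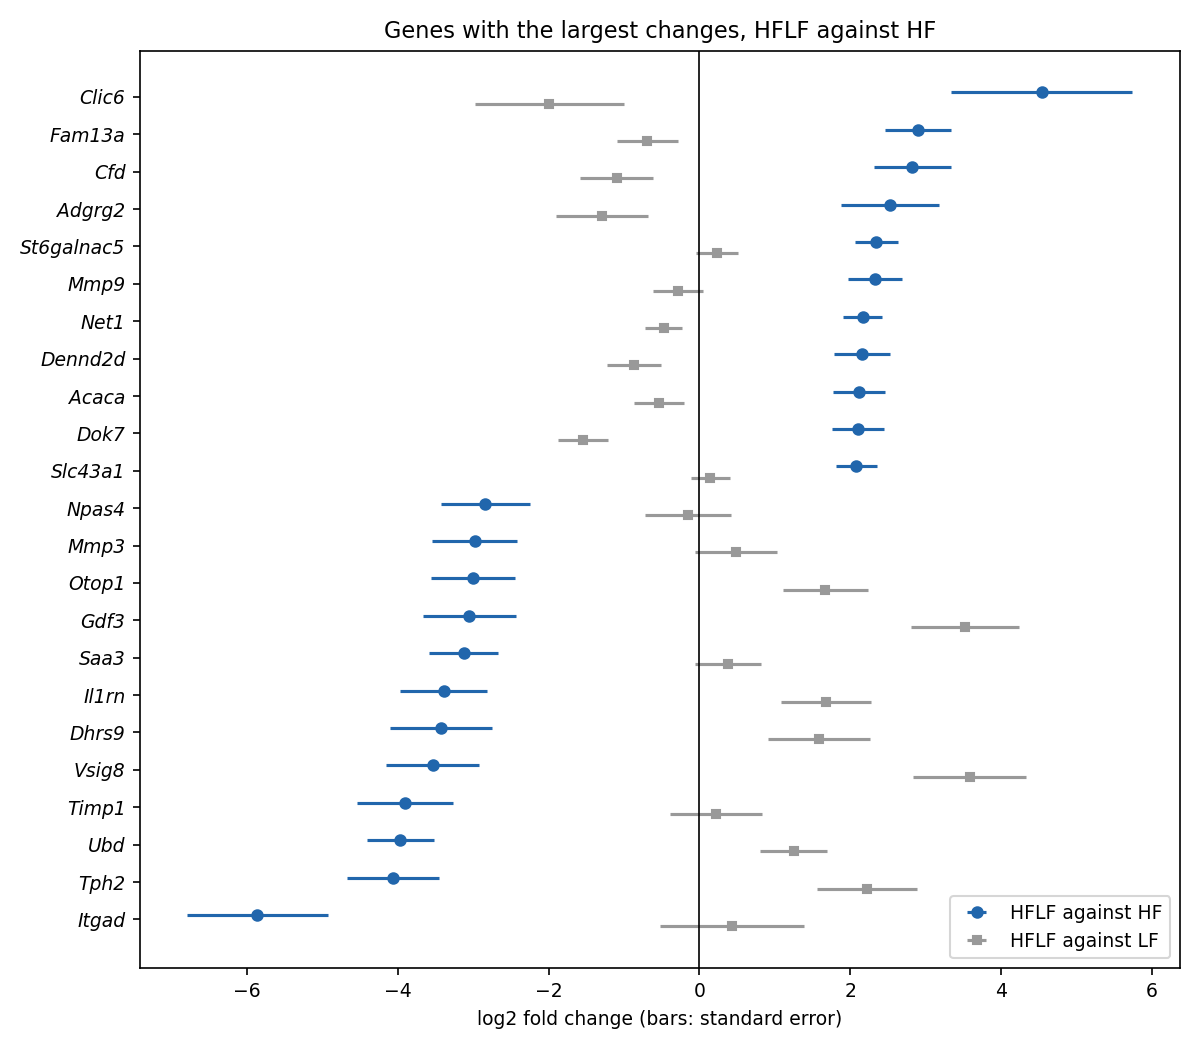
log2 fold change (with standard error) of 11 of the 12 largest rises and the 12 largest falls in HFLF against HF, in blue, with the same genes in HFLF against LF, in grey. The 2 contrasts share the HFLF libraries. Itgad has the largest fall (-5.86), and Clic6, whose value rests on HFLF 4, the largest rise.

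Clock genes were among those that differed. Of 19 measured, 9 were higher and 1 lower in HFLF, with a median of 0.42. The labels used here give no time of day of sampling, so diet and sampling time cannot be told apart for this list. Nr1d1, which encodes the repressor REV-ERB-alpha, was 103 to 201 CPM in HF and 265 to 375 CPM in HFLF (1.13 ± 0.19, adjusted p = 0.00121, edgeR). It overlaps Thra on the other strand. Cry2, a clock repressor, was higher by 0.62 ± 0.12 (adjusted p = 0.00203, edgeR). The core activators Arntl and Clock and the repressors Per1, Per2 and Cry1 did not pass. Nfil3, a repressor of D-box genes, was the lower member, at 7.77 to 18.7 CPM in HF and 4.8 to 6.04 CPM in HFLF (-1.31 ± 0.19, adjusted p = 0.000719, edgeR). LF libraries held 8.96 to 15 CPM of Nfil3, and HFLF was below LF by -1.05 ± 0.19 (adjusted p = 0.031, edgeR). Hsd11b1, which regenerates active glucocorticoid within fat, was 19.1 to 63 CPM in HF and 125 to 209 CPM in HFLF, higher by 1.82 ± 0.27 (adjusted p = 0.000719, edgeR). Its span overlaps Lamb3 on the other strand.

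Every collagen gene that passed the test was lower in HFLF. Of 31 measured collagens, 14 were lower and 0 higher, 12 of them without overlap between the groups, and the median was -0.65. The members that were lower were the fibrillar genes Col1a1, Col1a2, Col3a1, Col5a1 and Col5a2, the basement membrane genes Col4a1 and Col4a2, the microfibrillar genes Col6a1, Col6a2 and Col6a3, and Col8a1, Col12a1, Col14a1 and Col16a1. Col6a3, the chain whose cleaved end is the adipokine endotrophin (ENSMUSG00000048126.16, chromosome 1, 90765923 to 90843971, minus strand), was 531, 347, 586, 632, 337 and 472 CPM in HF 1 to 6 and 153, 202, 185, 148, 165 and 134 CPM in HFLF 1 to 6. The highest HFLF library was well below the lowest HF library, and the difference was -1.56 ± 0.16 (adjusted p = 0.000239, edgeR), with LF at 112 to 178 CPM. Col3a1, of fibrillar collagen III, was 1842 to 7440.5 CPM in HF and 906 to 1208 CPM in HFLF (-1.82 ± 0.26, adjusted p = 0.000579, edgeR). Col12a1, which binds to fibril surfaces, was lower by -2.10 ± 0.30 (adjusted p = 0.000683, edgeR).

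Many genes for assembling or remodelling the matrix were lower as well, with exceptions. Of 39 measured proteases, inhibitors and crosslinkers, 20 were lower and 3 higher (median -0.76). Lox and Loxl1, which crosslink collagen and elastin, were lower by -1.39 ± 0.20 and -1.21 ± 0.18 (adjusted p = 0.000719 and 0.000812, edgeR), with no overlap. The metalloprotease Adam12 was 33.8 to 73.4 CPM in HF and 20.3 to 31.4 CPM in HFLF (-1.23 ± 0.19, adjusted p = 0.000807, edgeR). Timp1, an inhibitor of metalloproteases, was 22.5, 19.1, 125, 40.5, 7.51 and 10.1 CPM in HF 1 to 6 and 1.03 to 4.33 CPM in HFLF, lower by -3.90 ± 0.64 (adjusted p = 0.00108, edgeR). It lies within Syn1 on the other strand. HF 3 stood far above the other HF libraries, and each HF library exceeded every HFLF library. Mmp3, stromelysin, was lower by -2.98 ± 0.56 (adjusted p = 0.00218, edgeR) with overlap through HFLF 2. Mmp9, gelatinase B, went the other way, at 1.56 to 7.3 CPM in HF and 8.95 to 26.5 CPM in HFLF (2.32 ± 0.36, adjusted p = 0.000837, edgeR). The matrix proteins fibrillin 1 (Fbn1, -1.61 ± 0.27) and periostin (Postn, -1.43 ± 0.25) were lower without overlap (adjusted p = 0.00139 and 0.00145, edgeR). The reduced set had 11 lower collagens and 12 lower remodelling genes, and in it every matrix gene given here with its value passed. The summed fibroblast and progenitor markers Pdgfra, Dcn, Lum and Dpp4 were 748 to 1670.1 CPM in HF and 921 to 1463 CPM in HFLF, with overlapping ranges.

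Genes of cell division showed the highest share of lower members among the lists in the plot of gene lists. Of 38 measured, 31 were lower and 0 higher in HFLF, 22 without overlap, with a median of -1.34. Leaving out single libraries gave counts between 29 (without HF 1) and 32 (without HF 5), and 23 passed in the reduced set. Mki67, the proliferation antigen Ki-67 (ENSMUSG00000031004.8, chromosome 7, 135689784 to 135716361, minus strand), was 40.2, 26.9, 62.3, 45.8, 18.5 and 32 CPM in HF 1 to 6 and 5.81, 13.6, 7.83, 8.25, 6.71 and 6.04 CPM in HFLF 1 to 6. No libraries overlapped, HFLF 2 was the highest of its group, and the difference was -2.23 ± 0.28 (adjusted p = 0.000358, edgeR). Cdk1, the kinase that starts mitosis, was 14.2, 8.78, 22.3, 16.6, 5.99 and 11 CPM in HF 1 to 6 and 2.16, 4.02, 2.26, 3.27, 2.16 and 2.86 CPM in HFLF 1 to 6 (-2.23 ± 0.30, adjusted p = 0.000453, edgeR). Cyclin A2 (Ccna2) was lower by -2.29 ± 0.29, the kinetochore gene Spc25 by -2.11 ± 0.24 and the spindle gene Fam83d by -1.71 ± 0.19 (adjusted p = 0.000358, 0.000239 and 0.000239, edgeR), all without overlap. Spc25 was still above LF (1.94 to 2.97 CPM against 0.779 to 1.85; 1.09 ± 0.24, adjusted p = 0.045, edgeR). Bulk RNA does not say which cells were dividing, and fewer cells of a type and less RNA per cell cannot be told apart in any comparison here. HF 3 was highest and HF 5 lowest of the HF libraries for Mki67, Ccna2 and Cdk1, an order shared with the macrophage markers described below.

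Promoters of mitotic genes are known to carry CCAAT boxes, bound by NF-Y, and the cell cycle homology region, bound by the DREAM and MuvB complexes. The stretches below, upstream of the RefSeq starts of Cdk1 and Mki67 (GRCm38.p6), are shown because these 2 genes stand for the list and hold both elements. Capitals mark CCAAT or its reverse complement ATTGG, and TTTGAA or its reverse complement TTCAAA. The coordinates are chr10:69352913-69353032, minus strand, and chr7:135716460-135716579, minus strand.
Cdk1: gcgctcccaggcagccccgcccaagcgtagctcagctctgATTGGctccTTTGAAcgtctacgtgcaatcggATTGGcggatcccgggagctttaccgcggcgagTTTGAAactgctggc
Mki67: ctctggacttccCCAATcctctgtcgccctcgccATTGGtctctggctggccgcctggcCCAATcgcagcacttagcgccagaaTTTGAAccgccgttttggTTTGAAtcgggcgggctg
In the 250 bases before the start, CCAAT was found on either strand in 22 of 30 list members with a RefSeq promoter entry and in 39.7% of the 12010 measured genes with one. TTTGAA was found in 8 of the 30 and in 13.4% of all. All 8 (Mki67, Top2a, Ccnb2, Cdk1, Mcm2, Cdc20, Kif11 and E2f8) were lower in HFLF, as were 26 of the 30 with or without TTTGAA. Such matches describe the sequence and are no evidence of binding.

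Macrophage transcripts were lower in HFLF on average, with large differences between libraries of the same diet. The summed level of 6 markers (Adgre1, Cd68, Csf1r, Mrc1, Lyz2 and Trem2) was 3514, 2305, 5583, 3983, 1020.3 and 1300.0 CPM in HF 1 to 6 and 1079.6, 2035, 840.0, 925, 963 and 757 CPM in HFLF 1 to 6. HF 5 and HF 6 lay near the HFLF libraries, and HFLF 2 lay within the HF range. The summed adipocyte markers ran in the opposite order within HF, from 12381 CPM in HF 3, the library with most macrophage signal, to 30566 CPM in HF 5, the one with least. As CPM are shares of a library, a rise in one cell type's transcripts lowers the share of the others. Not every adipocyte result above followed this order: Lep was lowest in HF 3 but highest in HF 2, and Acly was 414 CPM in HF 3 and 402 CPM in HF 5. Cfd, Slc2a4, Adipoq, Ppm1k, Ivd and Aldh6a1 were lowest in HF 3 and highest in HF 5. Trem2, Gpnmb and Cd68, described below, were highest in HF 3 and lowest in HF 5. Among matrix and chaperone genes, Col3a1, Calr, Canx and Hspa5 were likewise highest in HF 3 and lowest in HF 5. Col6a1 and Col6a3 were lowest in HF 5 but not highest in HF 3. The part of this order in these results was not tested.

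**Figure D4:**
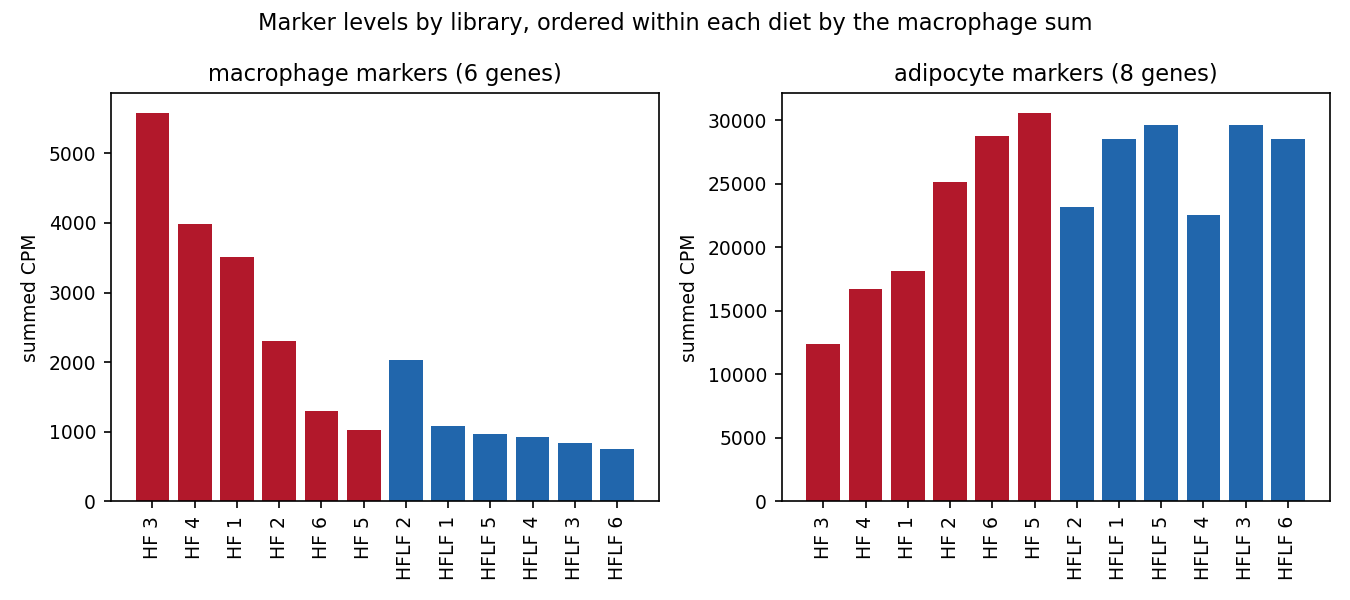
Summed CPM of 6 macrophage markers (left) and 8 adipocyte markers (right) in each HF (red) and HFLF (blue) library, ordered within each diet by the macrophage sum. Within HF the macrophage sum drops from HF 3 to HF 5 while the adipocyte sum climbs, and HFLF 2 has the highest macrophage sum of its group.

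Of 24 measured genes of lipid-associated macrophages, 16 were lower and 2 higher in HFLF, with a median of -1.69. Trem2 (ENSMUSG00000023992.14, chromosome 17, 48346401 to 48354147, plus strand) was 320.3, 118, 508, 331, 31.3 and 66.1 CPM in HF 1 to 6 and 30, 116, 22.2, 25.7, 23.3 and 14.8 CPM in HFLF 1 to 6. The groups overlapped because HFLF 2 was as high as HF 2, and the difference was -2.58 ± 0.61 (adjusted p = 0.00658, edgeR). Gpnmb, a glycoprotein of lipid-laden macrophages, was 196 to 4444 CPM in HF and 87.9 to 729 CPM with a median of 133 in HFLF (-2.87 ± 0.70, adjusted p = 0.00742, edgeR). Itgax (CD11c; -2.22 ± 0.60), the proton pump subunit Atp6v0d2 (-2.86 ± 0.64) and the scavenger protein Cd68 (-2.15 ± 0.49) were lower too (adjusted p = 0.0133, 0.00503 and 0.00548, edgeR). In all 4 of these the highest HFLF library was HFLF 2. Plin2, which coats lipid droplets outside adipocytes, was lower by -1.31 ± 0.28 (adjusted p = 0.00373, edgeR). Apoe, the lipoprotein that adipocytes also make, went the other way: it was 2967 to 4118 CPM in HF and 4818 to 5773 CPM in HFLF, higher by 0.61 ± 0.10 without overlap (adjusted p = 0.00141, edgeR). In the reduced set, which lacks HF 1, the third highest HF library for Trem2, 1 of the 24 was higher and 0 were lower in edgeR (18 of the 24 had an unadjusted p under 0.05), 20 had a negative difference, and the median was -1.34. Trem2 then stood at -2.15 (adjusted p = 0.0792) and Gpnmb at -2.52 (adjusted p = 0.076), and Itgax, Atp6v0d2, Cd68 and Plin2 at adjusted p of 0.113, 0.0641, 0.07 and 0.057 (edgeR).

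Other myeloid lists showed the same direction. Of 33 general leukocyte and recruited myeloid genes, 23 were lower and 0 higher (median -1.23). Of 47 lysosomal genes, 33 were lower and 0 higher (median -0.72), and of 15 genes of MHC class II presentation, 10 were lower and 0 higher (median -1.04). These counts were 6, 3 and 6 in the reduced set. H2-Ab1, the beta chain that presents antigen to helper T cells, was 479 to 1043 CPM in HF and 274 to 469 CPM in HFLF, lower without overlap by -1.05 ± 0.18 (adjusted p = 0.00136, edgeR), and passed there too. Adgre1, encoding the pan-macrophage antigen F4/80, was lower by -2.18 ± 0.45 (adjusted p = 0.00352, edgeR; 0.0562 in the reduced set). Mrc1 (CD206), of tissue-resident macrophages, was lower by -1.03 ± 0.23 (adjusted p = 0.00537, edgeR; 0.0627 there), but the 18 resident macrophage genes had 5 lower, 1 higher and a median of 0.02. Whether resident and lipid-associated genes differed in their response was not tested.

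The largest falls included genes of inflamed fat that separated the diets more completely. Ubd, an inflammation-induced ubiquitin-like protein, was 148, 105, 154, 179, 31.1 and 111 CPM in HF 1 to 6 and 4.9, 15.4, 8.2, 9.36, 3.21 and 5.62 CPM in HFLF 1 to 6, lower by -3.97 ± 0.44 (adjusted p = 0.000239, edgeR). Saa3, an acute-phase protein made in inflamed fat, was 31.5 to 109 CPM in HF and 5.73 to 12.8 CPM in HFLF (-3.13 ± 0.46, adjusted p = 0.000719, edgeR). Il1rn, the antagonist of interleukin-1, was lower by -3.39 ± 0.57, and the monocyte chemokine Ccl2 by -2.70 ± 0.52 (adjusted p = 0.00136 and 0.00233, edgeR). In none of these 4 did HF and HFLF overlap, although HF 5 was the lowest HF library in each. Tph2, an enzyme of serotonin synthesis best known from neurons, was 118, 62.1, 89.3, 105, 12.9 and 46.6 CPM in HF 1 to 6 and 0.553 to 7.32 CPM in HFLF, lower without overlap by -4.06 ± 0.61 (adjusted p = 0.0008, edgeR). Itgad (CD11d), an integrin of lipid-laden macrophages, had the largest fall, -5.86 ± 0.93 (adjusted p = 0.000949, edgeR), from 1.22 to 88.7 CPM to 0.114 to 1.53 CPM, with overlap through HF 5. All 6 passed in the reduced set. Prps1, which makes the ribose precursor of nucleotides, was among the smallest p of the falls, at 125 to 336 CPM in HF and 72.5 to 87.9 CPM in HFLF (-1.55 ± 0.18, adjusted p = 0.000245, edgeR).

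Chaperones of the endoplasmic reticulum fold secreted proteins and are known to rise in the unfolded protein response. Of 31 measured genes of the unfolded protein and integrated stress response, 15 were lower and 2, Xbp1 and Asns, higher, with a median of -0.31. The count of higher members was 0 without HF 4. Hspa5, the master chaperone BiP (ENSMUSG00000026864.13, chromosome 2, 34771970 to 34777547, plus strand), was 669, 758, 1051, 747, 560.1 and 663 CPM in HF 1 to 6 and 410.4, 445, 482, 487, 452 and 354 CPM in HFLF 1 to 6. The groups did not overlap, HF 3 was the highest, and the difference was -0.76 ± 0.13 (adjusted p = 0.00124, edgeR), with LF at 483 to 609 CPM. Calr, the lectin chaperone calreticulin, was lower by -0.69 ± 0.12, and Manf, a secreted factor induced by folding stress, by -0.76 ± 0.14 (adjusted p = 0.00133 and 0.00207, edgeR), both without overlap. Manf shares bases with Rbm15b on the same strand and with Dcaf1 on the other. The reduced set had 9 of the 31 lower, Hspa5, Calr and Manf among them.

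The endoplasmic reticulum stress element, CCAAT and CCACG with 9 bases of any kind between them, is the known docking site of NF-Y and ATF6 in these promoters. This arrangement was found, on either strand of the 250 bases before the RefSeq start, in 7 of 28 list members with a promoter entry and in 20 of all 12010 measured genes with one, 0.167%. Each full element also contains a CCAAT box. Of the 28, 12 were lower in HFLF, and of the 7, all but Dnajc3 (adjusted p = 0.0982, edgeR) were. Their stretches are shown because they share the element and the direction, with the element in capitals, on the gene's strand (GRCm38.p6, RefSeq).
Hspa5: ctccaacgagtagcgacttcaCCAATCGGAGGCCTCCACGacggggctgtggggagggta
Calr: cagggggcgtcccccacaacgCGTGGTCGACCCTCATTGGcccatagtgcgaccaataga
Hsp90b1: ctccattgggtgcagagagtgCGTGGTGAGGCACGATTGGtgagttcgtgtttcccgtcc
Canx: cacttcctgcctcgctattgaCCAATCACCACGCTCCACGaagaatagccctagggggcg
Pdia6: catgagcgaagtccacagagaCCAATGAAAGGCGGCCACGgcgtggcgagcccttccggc
Creld2: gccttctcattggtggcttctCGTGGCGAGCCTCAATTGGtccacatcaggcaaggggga
The stretches lie at chr2:34772004-34772063, plus strand, for Hspa5, chr8:84847055-84847114, minus strand, for Calr, chr10:86705513-86705572, minus strand, for Hsp90b1, chr11:50325780-50325839, minus strand, for Canx, chr12:17266470-17266529, plus strand, for Pdia6, and chr15:88819499-88819558, plus strand, for Creld2. In Calr, Hsp90b1 and Creld2 the element shown reads in reverse, beginning with CGTGG. Hsp90b1 (GRP94) differed by -0.41 ± 0.10 (adjusted p = 0.00628, edgeR), and Canx, the membrane lectin calnexin, differed by -0.33 ± 0.09 (adjusted p = 0.0154, edgeR). Pdia6, a disulfide isomerase, differed by -0.36 ± 0.08 and Creld2, a secreted isomerase-like protein, by -0.67 ± 0.18 (adjusted p = 0.0036 and 0.013, edgeR). In the reduced set Canx and Creld2 missed the threshold (adjusted p = 0.0847 and 0.0576, edgeR), and the other genes shown passed. The element's presence is a description and was not related to binding here.

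Of 34 genes of cholesterol synthesis, uptake and efflux, 14 were lower and 3 higher (median -0.36). Hmgcs1, which makes the precursor of mevalonate, was 325 to 469.8 CPM in HF and 84.2 to 277 CPM in HFLF, lower without overlap by -1.07 ± 0.24 (adjusted p = 0.00532, edgeR). Dhcr7, of the last step of the pathway, was 35.2 to 75.4 CPM in HF and 10.7 to 32.1 CPM in HFLF (-1.23 ± 0.26, adjusted p = 0.00408, edgeR). HFLF 4 was the lowest library for both, the count of lower members ranged between 9 (without HF 3) and 15 (without HF 5), and the reduced set had 1 lower and 2 higher, with a median of -0.19. Dhcr7 stood there at adjusted p = 0.0503 (edgeR).

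Of 26 endothelial genes 1 was higher and 0 lower, and of 16 B and plasma cell genes 1, Xbp1, was higher and 0 lower. In both lists the single higher call was lost without HF 1. Of 29 T and NK cell genes 1 was higher and 3 lower, and the lower ones, Thy1, Il7r and Il1rl1, are also made outside T cells. Without HF 2 this list had 4 higher and 3 lower. The summed T cell markers Cd3e, Cd3d, Cd2 and Lck were 6.11 to 26.8 CPM in HF and 8.09 to 22.3 CPM in HFLF, with full overlap. Cytosolic ribosomal proteins had 1 higher and 1 lower of 76 and a median of -0.03. Of 35 interferon-induced genes 2 were higher and 2 lower. Of 20 genes of microRNA processing, which the title of the series bears on, Tnrc6c was higher and Ago2 lower. Dicer1, the enzyme that releases mature microRNAs, was 36.1 to 44.4 CPM in HF and 38.8 to 49.1 CPM in HFLF and did not pass (adjusted p = 0.179, edgeR). Ago2, the slicing Argonaute, was lower by -0.39 ± 0.09 (adjusted p = 0.00731, edgeR; 0.0617 in the reduced set). Of 27 known targets of the microRNA let-7, 3 were higher and 7 lower, with a median of -0.10 against 0.00 over all genes. Over all genes 10.7% were higher and 14.7% lower. Ccnd1 is in both this list and the cell cycle list.

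Against mice that never ate the high-fat diet, HFLF differed at 94 genes (0.563%; 57 higher and 37 lower, edgeR quasi-likelihood test, adjusted p under 0.05). This contrast shares the HFLF libraries with the one above, and the count was unstable: it was 0 without LF 1, LF 2 or LF 4 (with 2594 to 2876 genes at an unadjusted p under 0.05), 4 without LF 3, 1 without HFLF 1, 2, 3, 5 or 6, 173 without HFLF 4 and 341 without LF 5. It was 1 in the reduced set, and DESeq2 called 704. A small count in this contrast does not show that the HFLF and LF transcriptomes were alike. Macrophage genes were among the higher ones. Gpnmb was 87.9 to 729 CPM in HFLF and 12.5 to 28.3 CPM in LF (3.60 ± 0.73, adjusted p = 0.0385, edgeR). Atp6v0d2 was 7.76 to 77.4 CPM in HFLF and 0.996 to 1.59 CPM in LF (4.27 ± 0.77, adjusted p = 0.031, edgeR). Itgax was 16.4 to 161 CPM against 4.35 to 9.09 CPM (3.11 ± 0.65, adjusted p = 0.0414, edgeR), and Trem2 was 14.8 to 116 CPM against 2.83 to 5.93 CPM but missed the threshold (2.94 ± 0.65, adjusted p = 0.0515, edgeR). In all 4 each HFLF library exceeded each LF library. Vsig8 and Gdf3, 2 of the 12 largest falls against HF (-3.53 ± 0.62 and -3.05 ± 0.62), were above LF by 3.58 ± 0.75 and 3.52 ± 0.72 (adjusted p = 0.0414 and 0.0385, edgeR). The adipocyte and matrix genes with full values above did not pass against LF: the difference was -1.10 ± 0.49 for Cfd, -0.54 ± 0.33 for Acaca, 0.01 ± 0.30 for Slc2a4, 0.49 ± 0.41 for Lep and 0.25 ± 0.16 for Col6a3 (adjusted p = 0.246, 0.384, 0.992, 0.535 and 0.413, edgeR).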

How the data were processed

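RNA from eWAT was extracted with TRI reagent and sequenced on an Illumina NovaSeq, per the labels' protocols. Reads were aligned with STAR to GRCm38.p6, per the submitters' processing notes, and the tool, annotation and strand setting that gave gene counts are not named in those sources. The deposited eWAT table holds raw counts for 16690 genes in 18 libraries, and every gene exceeds 0.5 CPM in at least 6 of them, so genes at lower levels are not analysed here. Library totals were 8941798 to 31186477 counts. The eWAT table of normalized values and the liver tables were not used here. Gene symbols and positions came from GENCODE M21 for 16668 genes.

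Counts were scaled by TMM and fitted with edgeR 4.0.16 (R 4.3.3) in a quasi-likelihood model with robust estimation and 1 term per diet, over all 18 libraries. Log2 fold changes computed from the deposited counts are given with standard errors, and p-values were adjusted by Benjamini-Hochberg over all 16690 genes at 0.05. Levels are CPM on the scaled library size, with SD over 6 libraries. CPM are not corrected for gene length, so levels were not compared between genes. The procedure was tested on simulated counts with known changes in HFLF. It called 49.3% of 67 genes changed 1.5-fold, 76.1% of 67 changed 2-fold and 97% of 66 changed 4-fold. Many of the smaller changes were therefore missed in the simulation. Far fewer genes were changed in it than the 4242 called between HFLF and HF, so these rates do not carry over directly. Alternatives used DESeq2 1.42.0, limma 3.58.1, other scalings and filters, a replicate block, and subsets of libraries.

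The members of the comparison and the gene lists were chosen with earlier results of these data known. Named genes are the 12 largest rises and falls and the 8 smallest p in each direction that also passed without LF 3, 4 and 5, HF 1, and HFLF 4 and 6, had a mean log2 CPM of at least 2 and were no predicted, immunoglobulin or T cell receptor genes, plus up to 6 members per list with the smallest p, and a set of genes chosen for adipose biology. Epcam is among the members of its list with the smallest p, and Prm2, Hsp90b1, Pdia6, Creld2 and Dnajc3 were named after their values were seen. A few genes that meet the rule are not reported here. Promoter sequences are RefSeq windows of GRCm38.p6, of which the 250 bases before the start were searched. Counting error is small at these depths except for genes near 1 CPM.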

Additional observations from a re-analysis of the deposited data

Results flagged for a closer look

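Among the 92 genes read in both diets, 184 groups of 6 libraries were screened for a single library that stood apart from the rest by Dixon's test, which chance alone flags in about 1 in 20 groups. Genes such as the macrophage markers move together, so the groups are not independent, and Prm2 and Epcam were read after their values were seen. The 1 in 20 rate therefore does not tell whether the 17 cases found were an excess. HFLF 2 gave 8 of them, all as the highest HFLF library: Trem2 at 115.7 CPM (next library 29.96), Gpnmb at 728.8 (160.2), Itgax at 161.3 (43.18), Cd68 at 220.9 (77.7), Adgre1 at 127.8 (58.6), Atp6v0d2 at 77.42 (18.46), Vsig8 at 13.19 (4.152) and Mki67 at 13.59 CPM (8.253). HF 3 was the highest HF library for Timp1 at 125.2 CPM (next library 40.47), Fbn1 at 680.7 (389.6) and Ccl2 at 74.26 CPM (35.11). HFLF 4 was the highest of its group for Gpx3 at 1421 CPM (845.8), Clic6 at 30.11 (2.653) and Epcam at 29.78 CPM (0.9519). HF 1 was the highest HF library for Epcam at 2.58 CPM (0.3833) and for Prm2 at 333 CPM (18.43), and HFLF 6 was the highest of its group for Prm2 at 88.91 CPM (11.98). Removing HFLF 2 gave 4114 genes between HFLF and HF against 4242 with it, and moved the median of the lipid-associated macrophage genes from -1.69 to -2.04.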

How the results depend on the processing

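The count of 4242 genes between HFLF and HF was 4279 with DESeq2-type size factors, 4385 with upper-quartile factors, 5110 with DESeq2, 4958 with limma voom, 3801 over genes of at least 5 CPM, 4302 in a fit of the 2 groups alone and 3075 to 5314 when single libraries were left out (lowest without HF 3, highest without HF 5). It was 1390 without LF 3, 4 and 5, HF 1, and HFLF 4 and 6, of which 1252 were among the 4242, and 951 without HF 1 and HFLF 4 and 6, of which 941 were; both fits have fewer libraries. With a log2 fold change of at least 1 in size it was 1261. The count of 94 genes between HFLF and LF was 704 with DESeq2, 644 with limma voom, 50 in a fit of the 2 groups alone, 31 with a log2 fold change of at least 1, 6 and 1 in the 2 reduced sets of libraries, and 0 to 341 when single libraries were left out. The cause was not tested. Upper-quartile factors turned the split of the first total to 2352 higher and 2033 lower from 1784 and 2458. No gene named by the rule and called with all libraries changed sign under the alternatives run. The balance of higher against lower calls turned in 6 of 48 lists, without a change in the sign of their medians. They were lipid-associated macrophage (1 higher and 0 lower), cholesterol (2 and 1) and fatty acid uptake genes (1 and 0) without HF 1 and HFLF 4 and 6, triglyceride synthesis (0 and 1) and complement genes (1 and 0) without LF 3, 4 and 5 as well, and T and NK cell genes (4 and 3) without HF 2. Precision is limited by 6 libraries per diet that differ among themselves in macrophage and neighbouring-tissue transcripts.

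Replicate numbers do not mark a stated pairing. Deviations of same-numbered HF and HFLF libraries correlated at -0.29 to 0.34, above 0.1 in 3 of 6 pairs, and 2 of 6 libraries correlated best with their own number. With the replicate block, 4002 genes were called between HFLF and HF and 15 between HFLF and LF.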
